A study of Mus musculus with 8 samples.

Results

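Acute ERS was set against the vehicle in MPH to see which chromatin regions gain or lose H3K27ac, and 10 genes that build fatty acids and triglycerides are described here. They are Srebf1 and Mlxipl, which encode lipogenic transcription factors, the fatty acid synthesis genes Acly, Acaca, Acacb, Fasn, Scd1 and Elovl6, and the triglyceride synthesis genes Gpam and Dgat2. They are 10 of 55304 annotated gene symbols, or of the 12261 of these that have a TSS inside a listed region. The set was selected on its place in the pathway and on 1 measured value, the width of the DOWN region at Gpam, which also fixed the class of Gpam. That width and class are given as a description and support nothing. The cells are hepatocytes isolated from adult male WT mice, labelled C57Bl6 and given as C57BL/6J in the methods. One group received 1 µM thapsigargin, which blocks the calcium pump of the endoplasmic reticulum and so induces ERS, and the other received 0.04% DMSO, each for 4 h. Each group has 3 H3K27ac libraries from separate experiments and 1 input library, which makes 8 libraries. The values are region positions on mm10 in 3 lists made across the libraries of both groups. UP regions have more H3K27ac after thapsigargin, DOWN regions have less, and unchanged regions did not pass the FDR threshold of 0.05 in the paired test of the study. The lists carry no count, signal or fold change, so depth is unknown, no value has an error between experiments, the size of a gain or loss cannot be given, and no test was run.

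H3K27ac marks active promoters and enhancers, and its broadest stretches often cover genes of high activity in the cell type. In the liver, insulin raises SREBP-1c and carbohydrate activates ChREBP, the product of Mlxipl, and both factors act on the genes of fatty acid synthesis. Acetyl-CoA is made from citrate, carboxylated, extended to palmitate, elongated and desaturated, and the acyl chains are then joined to glycerol until triglyceride is formed. The unfolded protein response that follows ERS has sensors in the membrane of the endoplasmic reticulum, where the SREBP precursors also reside.

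The members did not fall into 1 class. Gpam alone had its TSSs in a DOWN region, Acly and Fasn had TSSs in an UP region, and the other 7 members had TSSs in unchanged regions alone. DOWN regions hold a TSS of 8.91% of those 12261 genes, and UP regions hold a TSS of 21.4% of them, beside 1 and 2 of 10 members. The 1 is Gpam, which was known to be there when the set was selected. Of the 68 annotated transcripts of the members, 5 start in a DOWN region, all at Gpam, 6 in an UP region, 31 in unchanged regions and 26 in no region. By group, the fatty acid synthesis genes were at UP or unchanged regions and the factor genes at unchanged regions. The pair of triglyceride genes was at a DOWN and an unchanged region. The counts of 1 and 2 members are near the shares over all genes, so no split by step of the pathway is read from them.

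**Figure D1:**
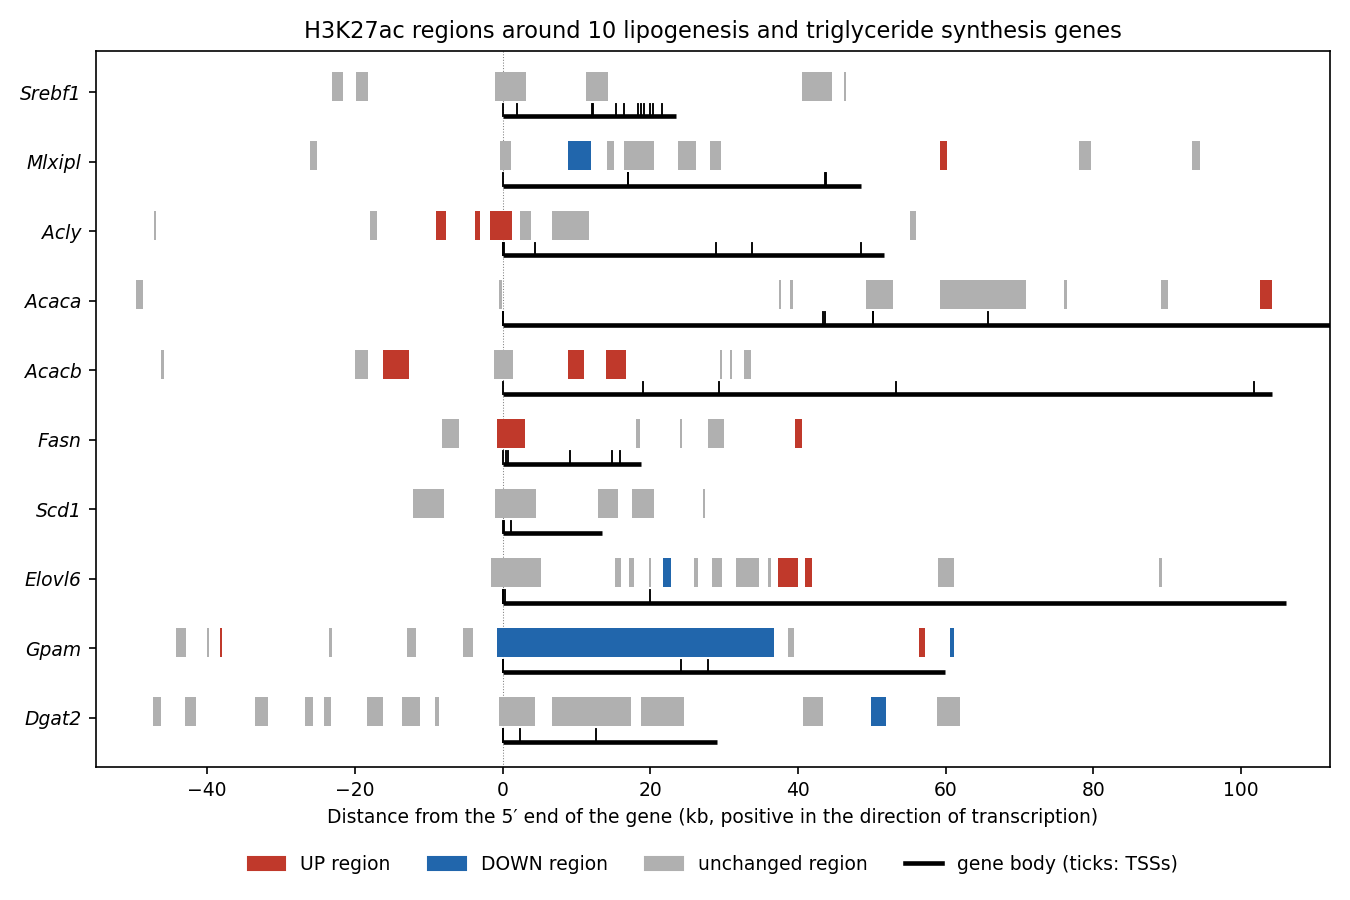
Each row is 1 gene, and the x axis gives the distance from its 5′ end in kb, positive in the direction of transcription. Boxes are H3K27ac regions by class, the black line is the gene body and ticks are TSSs. One unchanged region of Acaca, 246 kb from its 5′ end, lies beyond the axis. The DOWN region at Gpam runs from 776 bp upstream to 36738 bp downstream, whereas the other 4 DOWN regions are at most 3192 bp wide.

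Gpam encodes the mitochondrial glycerol-3-phosphate acyltransferase, which adds the first acyl chain to glycerol-3-phosphate. Its DOWN region, at chr19:55090500-55128014 on mm10, is 37515 bp wide, the second widest of 3376 DOWN regions and the third widest of all 32196 regions. The widest DOWN region, of 39056 bp, lies over Zbtb16 and holds no TSS, so that of Gpam is the widest DOWN region with a TSS. The next, of 33987 bp, lies over Vmp1 and Mir21a, and the fourth, of 30378 bp, over Myh9. The Gpam region reaches 776 bp upstream of the first TSS and 36738 bp downstream of it. It holds the starts of all 5 transcripts, which lie at 0, 0.02, 0.04, 24.2 and 27.8 kb from the 5′ end, and therefore both the upstream and the intronic start of the coding transcripts. It spans 6 of the 22 exons of Gpam-202 and covers 61.3% of the gene body. It also holds the start of the lncRNA gene AC110206.1. Across the gene bodies of all 10 members together, DOWN regions cover 5.64% of the bases, and without Gpam 0.646%.

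Most of the other regions at the Gpam locus did not share the class of that region. An unchanged region of 872 bp follows it after a gap of 1863 bp, still within the gene, and an unchanged region of 1356 bp precedes it at a distance of 3208 bp. An UP region of 759 bp lies over exon 22, the last exon of Gpam-202, at chr19:55070062-55070820, and a DOWN region of 519 bp lies just past the 3′ end of the gene at chr19:55066089-55066607. Upstream, an UP region of 257 bp lies 38054 bp from the 5′ end among 5 unchanged regions of 225 to 1399 bp. Gpam thus has 2 UP, 2 DOWN and 6 unchanged regions within 50 kb of its TSSs, and 38034 bp of DOWN against 1016 bp of UP.

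**Figure D2:**
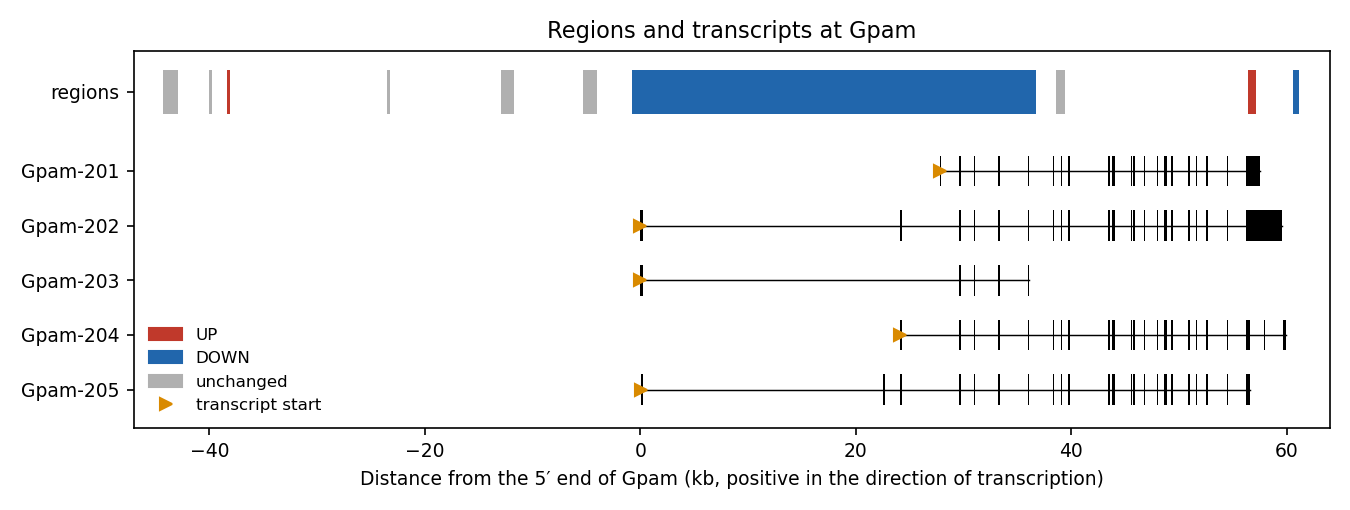
The x axis gives the distance from the 5′ end of Gpam in kb. The top row shows the regions by class, and the rows below show the exons (black) of the 5 transcripts with an arrowhead at each start. All 5 starts lie within the DOWN region of 37515 bp, while the last exon lies outside it and carries an UP region of 759 bp.

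The bases before both Gpam starts are shown because both starts lie in the same DOWN region. They are RefSeq promoters on GRCm38.p6, minus strand, written 5′ to 3′. The first is the stretch upstream of the first start that no Gpam exon covers, at chr19:55127320-55127488, and the second is the 250 bases before the intronic start, at chr19:55099478-55099727. Capitals would mark any of the motifs named below, and neither stretch holds one. A CCAAT on the opposite strand, 74 to 70 bases before the first start, lies in bases that a RefSeq exon covers and is not shown.
Gpam, first start: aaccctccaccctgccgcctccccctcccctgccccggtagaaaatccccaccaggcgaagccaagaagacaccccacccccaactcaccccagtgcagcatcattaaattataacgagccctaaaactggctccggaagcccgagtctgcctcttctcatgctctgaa
Gpam, intronic start: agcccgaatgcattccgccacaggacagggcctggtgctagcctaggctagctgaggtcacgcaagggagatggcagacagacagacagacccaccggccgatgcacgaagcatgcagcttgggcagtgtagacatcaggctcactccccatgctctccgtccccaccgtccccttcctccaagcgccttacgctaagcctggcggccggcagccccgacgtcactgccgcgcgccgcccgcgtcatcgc
The 250 bases before the first start have a GC content of 54.8% and 7 CpGs, and those before the intronic start have 66.0% and 21 CpGs. Over its whole width the DOWN region has a GC content of 46.0%, near the median of 46.6% for all DOWN regions, and 13.1 CpGs per kb.

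Dgat2, whose product adds the last acyl chain to diacylglycerol, had the most acetylated surroundings of the members after Gpam, and all its own regions were unchanged. Its 6 transcripts start in a region of 4911 bp over the 5′ end and in a region of 10797 bp in intron 1. With another region of 5808 bp, unchanged regions cover 72.2% of the Dgat2 body, the highest share among the members. Within 50 kb there are 13 unchanged regions with 38903 bp in all, and 1 DOWN region of 1979 bp at chr7:99130853-99132831. That DOWN region lies 37275 bp from the nearest Dgat2 TSS, in the body of the neighbouring gene Uvrag. The first and the last enzymes of triglyceride synthesis in the set therefore both have over 40 kb of acetylated region nearby, mostly DOWN at Gpam and mostly unchanged at Dgat2.

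**Figure D3:**
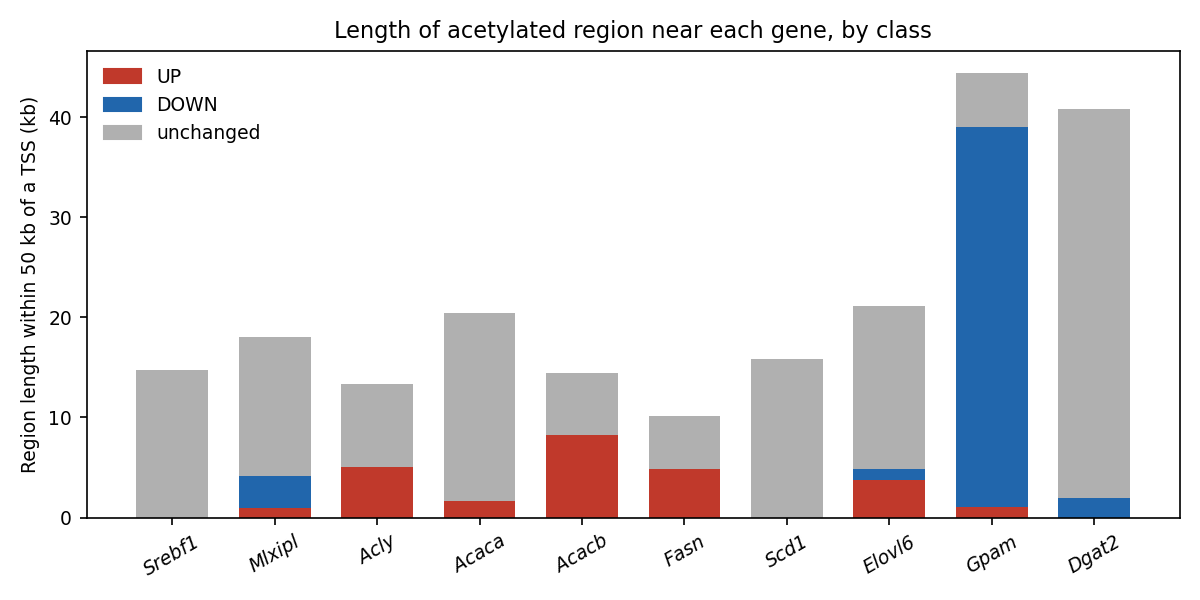
Bars give, for each gene, the summed width in kb of the regions within 50 kb of its TSSs, split by class. Gpam and Dgat2 have the tallest bars, with 38034 bp of DOWN region at Gpam and 38903 bp of unchanged region at Dgat2, and Srebf1 and Scd1 have unchanged regions alone.

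Fasn encodes fatty acid synthase, which makes palmitate. Its UP region at chr11:120821553-120825348 is 3796 bp wide and holds 3 of its 6 annotated starts, all within 0.77 kb of the 5′ end. The region reaches 801 bp upstream of the first TSS and 2994 bp downstream of it, spans 3 of 43 exons and covers 16.0% of the gene body. The other 3 transcripts are retained-intron models that start in no region. An unchanged region of 574 bp lies near the 3′ end of the gene, and an unchanged region of 2308 bp lies 5884 bp upstream. A second UP region of 1047 bp lies 39.5 kb downstream of the Fasn 5′ end and holds TSSs of Gps1 and Rfng, so it cannot be ascribed to Fasn by position. Fasn had no DOWN region within 50 kb.

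Acly encodes ATP citrate lyase, which makes cytosolic acetyl-CoA. Its UP region at chr11:100526680-100529686 is 3007 bp wide and holds 3 of 7 annotated starts. A pair of UP regions lies upstream, 1 of 715 bp at 3050 bp and 1 of 1348 bp at 7704 bp from the 5′ end, and neither holds the TSS of any gene. Going into the gene, the next regions are unchanged, with widths of 1445 bp and 4878 bp. Acly is the member with the most UP regions upstream of its 5′ end, and it had no DOWN region within 50 kb. Its 3 UP regions add up to 5070 bp.

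The bases before the first starts of Acly and Fasn are shown since these are the members with a TSS in an UP region, with CCAAT and CCACG matches in capitals on either strand. For Acly all 250 bases are given, from chr11:100528001-100528250, minus strand. For Fasn, where a RefSeq exon covers the bases before the main start, 30 bases that hold 3 of its 5 matches are given, from chr11:120824580-120824609, minus strand.
Acly: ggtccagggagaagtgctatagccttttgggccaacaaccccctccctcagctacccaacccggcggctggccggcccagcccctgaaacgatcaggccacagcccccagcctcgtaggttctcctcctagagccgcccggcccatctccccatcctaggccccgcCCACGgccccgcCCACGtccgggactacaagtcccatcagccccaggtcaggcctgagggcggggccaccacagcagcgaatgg
Fasn: CCAATTGGtttcgatgtggagcaggCCACG
In the Fasn stretch, CCAAT and its reverse complement overlap in the first 8 bases, 62 to 55 bases before the TSS, and CCACG ends 33 bases before it. In Acly the pair of CCACG matches lies 84 to 80 and 72 to 68 bases before the TSS.

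Acaca and Acacb encode the acetyl-CoA carboxylases, of which the first serves fatty acid synthesis in the cytosol and the second is bound to mitochondria, where its malonyl-CoA limits fatty acid oxidation. Both had TSSs in unchanged regions alone, and both had UP regions in the gene body. At Acaca, the 9 annotated starts spread over 151 kb. Of these, 3 lie in an unchanged region of 3691 bp and 1 in an unchanged region of 11617 bp, which is among the 50 widest of the 23312 unchanged regions, at rank 47. The first 2 starts lie 99 and 127 bp from an unchanged region of 425 bp and in no region. The UP region of Acaca is 1683 bp wide, lies in intron 10 at chr11:84232231-84233913, and is 36793 bp from the nearest TSS.

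At Acacb, the unchanged region of 2484 bp holds the first of 5 starts, and the other 4 starts lie in no region. UP regions of 2099 bp and 2672 bp, at chr5:114155433-114157531 and chr5:114160592-114163263, lie 3060 bp apart in intron 1, between the first and the second start. The second start is 2255 bp past the second of them. The remaining UP region, of 3514 bp at chr5:114130311-114133824, lies upstream and holds a TSS of Ung. Within 50 kb of Acacb, UP regions make up 8285 bp and unchanged regions 6162 bp. Acacb was the sole member at which UP outweighed unchanged regions in base pairs.

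Scd1 and Elovl6 act on the chains that fatty acid synthase releases, Scd1 by introducing a double bond and Elovl6 by elongating palmitate. All 3 Scd1 transcripts start in an unchanged region of 5535 bp, and the 4 other regions within 50 kb were also unchanged, from 368 to 4296 bp wide. Unchanged regions cover 36.9% of the Scd1 gene body. Elovl6 had 12 regions within 50 kb, 9 of them unchanged, 2 UP and 1 DOWN. Its 5′ region of 6758 bp is unchanged and holds 4 of 5 starts, and the fifth start lies in an unchanged region of 352 bp. The changed regions all lie in intron 2. The DOWN region of 1115 bp at chr3:129554107-129555221 comes first, and after 4 unchanged regions come UP regions of 2824 bp and 958 bp, at chr3:129569585-129572408 and chr3:129573317-129574274, separated by 908 bp. Elovl6 and Gpam were the members with both an UP and a DOWN region in the gene body, which holds for 4.04% of the 12261 genes. The DOWN region of Gpam was part of the selection.

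Srebf1 encodes SREBP-1, whose 1a and 1c forms differ in their first exon. Both start regions were unchanged. The region of 4245 bp at the 5′ end holds 2 starts, and the region of 2930 bp in intron 1 of the longest transcript holds 2 more, including the start that RefSeq assigns to isoform c. The other 8 transcripts start in no region. All 6 regions within 50 kb of Srebf1 were unchanged, so Srebf1 and Scd1 were the 2 members without a changed region in their windows.

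At Mlxipl, the changed region lies between the starts and not at them. The upstream start, in an unchanged region of 1482 bp, lies 17 kb before the main cluster of 7 starts, which shares an unchanged region of 4033 bp. ChREBP-beta is known to start from an exon upstream of that of ChREBP-alpha. A DOWN region of 3192 bp at chr5:135098712-135101903 lies between them, in the intron of Mlxipl-210, 4988 bp from the nearest TSS. An unchanged region of 956 bp separates it from the main cluster, and 2 starts further 3′ lie in no region. An UP region of 942 bp, 15548 bp from the nearest Mlxipl TSS, holds a TSS of Tbl2.

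The bases before the 2 Mlxipl starts are shown because these flank the DOWN region, and those before the Srebf1 isoform c start because it is the insulin-regulated form. Capitals mark matches to the SRE TCACNCCAC, the E-box CACGTG, the CCAAT box and CCACG on either strand. The Mlxipl stretches are on the plus strand, at chr5:135089640-135089889 and chr5:135106641-135106868, and the Srebf1 stretch is on the minus strand, at chr11:60210486-60210721. The last 2 end where a RefSeq exon begins.
Mlxipl, upstream start: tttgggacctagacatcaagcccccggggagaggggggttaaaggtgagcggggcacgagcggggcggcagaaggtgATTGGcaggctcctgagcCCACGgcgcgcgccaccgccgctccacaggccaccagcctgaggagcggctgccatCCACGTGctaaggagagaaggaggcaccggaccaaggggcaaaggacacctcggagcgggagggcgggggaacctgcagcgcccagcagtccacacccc
Mlxipl, main start: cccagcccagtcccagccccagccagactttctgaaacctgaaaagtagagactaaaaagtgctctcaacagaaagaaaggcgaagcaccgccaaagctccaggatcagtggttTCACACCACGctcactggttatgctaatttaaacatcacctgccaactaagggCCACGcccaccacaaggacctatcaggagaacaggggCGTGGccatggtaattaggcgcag
Srebf1, isoform c start: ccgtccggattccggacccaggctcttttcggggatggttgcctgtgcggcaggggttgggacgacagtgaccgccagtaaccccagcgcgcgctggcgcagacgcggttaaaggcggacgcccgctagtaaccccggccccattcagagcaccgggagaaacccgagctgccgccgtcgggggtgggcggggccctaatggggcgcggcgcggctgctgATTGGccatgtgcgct
The upstream Mlxipl start has the E-box, which overlaps a CCACG, and the main start has the SRE, which also overlaps a CCACG.

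Within 50 kb of the members' TSSs there were 89 regions, none of them shared by 2 members. Of these, 14 (15.7%) were UP, 5 (5.62%) DOWN and 70 (78.7%) unchanged, beside 17.1% UP and 10.5% DOWN among all 32196 regions. A DOWN region lay within 50 kb of 4 members (Mlxipl, Elovl6, Gpam and Dgat2), beside 31.9% of the 12261 genes, and an UP region within 50 kb of 7 members (all but Srebf1, Scd1 and Dgat2), beside 53.0%. A DOWN region lay in the gene body of 3 members (Mlxipl, Elovl6 and Gpam), beside 15.0%, and an UP region in that of 6 (Acly, Acaca, Acacb, Fasn, Elovl6 and Gpam), beside 29.7%. Gpam enters these DOWN counts by selection. The members are longer than those genes, with a median of 50070.5 bp against 18773 bp, and have more unchanged regions within 50 kb, with a mean of 7.0 against 3.62. The mean number of UP regions was 1.4 against 0.86, and that of DOWN regions 0.5 against 0.48. The part of gene length in these counts was not tested. The number of DOWN regions near the members, 5 within 50 kb, was 3 within 25 kb and 10 within 100 kb.

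In base pairs, DOWN regions made up 20.7% of the regions near the members, and 3.86% without the one at the Gpam TSSs, beside 18.0% over all regions. UP regions made up 12.0%, and 14.5% without that region, beside 21.2% over all. Of the 19 changed regions, 3 hold a member's TSS and 16 do not, 12 UP and 4 DOWN. Of those 16, 8 lie in a member's body and 8 outside, and 3 hold a TSS of another gene (Tbl2, Ung, and Gps1 with Rfng). At the start sites themselves, the members had 15 regions with a median width of 4033 bp. Taking the widest TSS region of each gene, the median was 4890 bp over the 10 members and 4245 bp without Gpam, beside 1850 bp over the 12261 genes. Of those genes 9805 are protein-coding, as all members are. A widest region can only rise with the number of annotated starts, whose part in this difference was not tested.

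**Figure D4:**
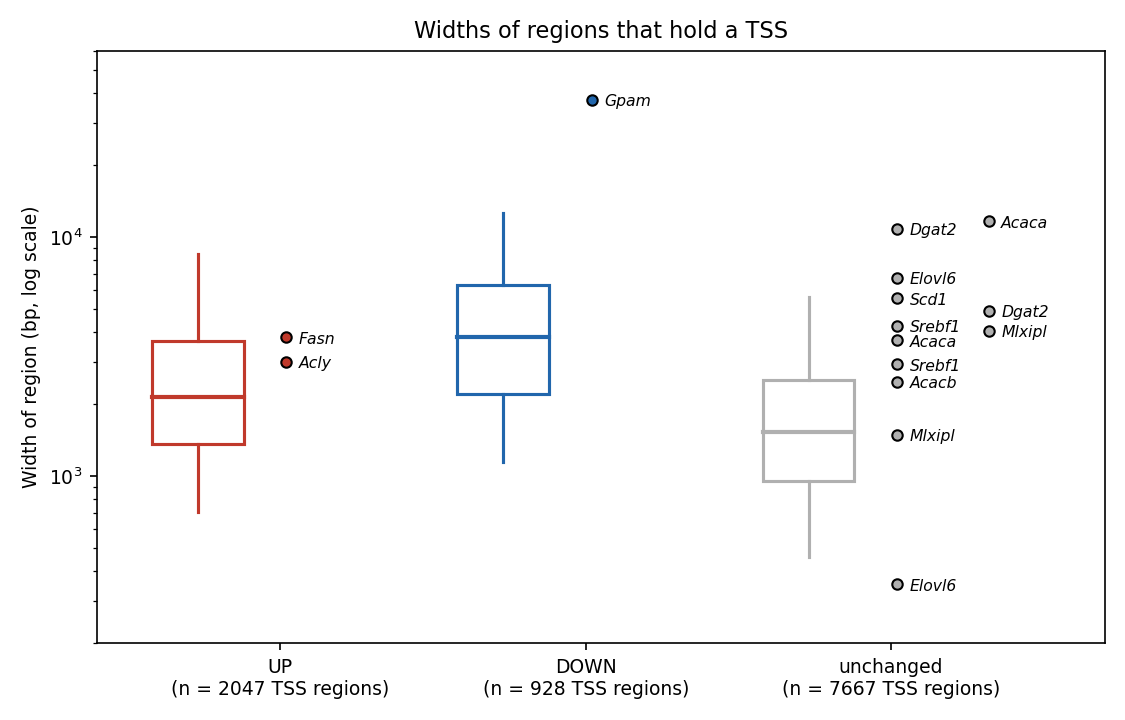
The y axis gives the width of regions with a TSS in bp on a log scale. Boxes span the quartiles of all such regions of a class with the median as a line and whiskers from the 5th to the 95th percentile, and points are the members' 15 TSS regions. Gpam lies above the whisker of the DOWN class, Fasn and Acly lie above the UP median of 2136 bp, and 10 of the 12 unchanged points lie above the unchanged median of 1530 bp.

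The genes most like Gpam in the length of UP and DOWN region within 50 kb of their TSSs, among 9805 protein-coding genes with a TSS in a region, were Lurap1l, Zbtb16 and Myom1. Lurap1l had 39637 bp of DOWN and 245 bp of UP region, with a TSS region of 20117 bp. Zbtb16 had 36054 bp and Myom1 34980 bp of DOWN region, neither with an UP region. The DOWN region of 39056 bp over Zbtb16 lies outside the 50 kb windows and is not in that sum. This likeness is a distance in base pairs between 2 sums and was built on the same lists as the width at Gpam.

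Motifs were searched in the 250 bases before the TSS in RefSeq promoters, of which 12 belong to 8 members and none to Scd1 or Dgat2. CCAAT was found in 6 of the 12 and in 33.8% of all 32851 promoters, and CCACG in 5 and in 28.3%. Of all promoters 22519 lie in no region, whereas most of the member promoters lie in one. CCACG was in 48.5% of promoters at UP, 37.5% at DOWN and 42.0% at unchanged regions, and in 21.6% of those in no region. The 5 of 12 thus lies within the range of shares at regions. For CCAAT the shares differed less between classes. The E-box CACGTG was found in 1 (6.02% of all), the SRE TCACNCCAC in 1 (1.05%), and TATAAA in 1, at Acacb (12.4%). The E-box was in 9.77% of promoters at UP, 4.67% at DOWN and 8.88% at unchanged regions, and in 4.79% of those in no region. TGATGCAA of C/EBP-ATF pairs, TGACGTGG of XBP1, TTACNTAA of D-box factors and TGANTCA of AP-1 were found in none of the 12. Their shares of all promoters were 0.791%, 0.563%, 2.06% and 6.75%. TGACGTGG was in 1.91% of promoters at UP, 2.39% at DOWN and 0.449% at unchanged regions, and in 0.404% of those in no region. The Acacb promoter searched is that of its second start, which lies in no region. There, CCAAT lies 87 to 83 and CCACG 73 to 69 bases before the TSS, on the same strand. Joint arrangements of CCAAT and CCACG were not searched. A match here is a string of letters, not a bound site.

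Whole regions were then searched for TGACGTGG and TGATGCAA, a step chosen after the promoter result was seen. Over the 91 regions in the members' windows or bodies, which hold 215143 bp, TGACGTGG was found 6 times (2.79 per 100 kb, beside 1.36 per 100 kb over all regions) and TGATGCAA 6 times (2.79 beside 3.48). By class, TGATGCAA was found 0 times in the members' 14 UP regions, 1 time in DOWN and 5 times in unchanged regions. Over all regions its rate per 100 kb was 6.0 in UP, 2.44 in DOWN and 2.91 in unchanged regions. The matches of both motifs are few, and no difference in rate was tested. The TGACGTGG matches at Gpam, Acly and Scd1 and the TGATGCAA matches at Gpam and Srebf1 are shown because they fall in a DOWN, an UP and unchanged regions, with the motif in capitals and 11 bases on each side on mm10.
Gpam, DOWN, chr19:55104521-55104550, minus strand: tcactgtgctgTGACGTGGaatcttcagtc
Acly, UP, chr11:100535974-100536003, minus strand: aaagctcccacTGACGTGGgggtcatatta
Scd1, unchanged, chr19:44403631-44403660, minus strand: cgcttcagggcTGACGTGGaccacagtccc
Scd1, unchanged, chr19:44405393-44405422, plus strand: tgctctacttgTGACGTGGaaaaacagcgg
Gpam, DOWN, chr19:55098152-55098181, plus strand: cgtgagctaccTGATGCAAgtgctgggacc
Srebf1, unchanged, chr11:60221679-60221708, plus strand: tggcccacaggTGATGCAAgttgggaggca
The Acly match lies in the UP region of 1348 bp upstream of the gene, and both Scd1 matches lie in its unchanged TSS region. The remaining matches fall in unchanged regions near Dgat2 and Mlxipl for TGACGTGG, and near Acaca, Dgat2, Fasn and Gpam for TGATGCAA.

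Of 64 other genes of the pathway, 57 had a TSS in a region. Of these 57, 11 had one in an UP region (19.3%, beside 21.4% of all such genes), 10 in a DOWN region (17.5%, beside 8.91%) and 36 in unchanged regions alone. The lists were drawn up with results of these data known, and no test of the difference was run. With the 5′ end of the gene record as the sole TSS, the DOWN count was 6.

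**Figure D5:**
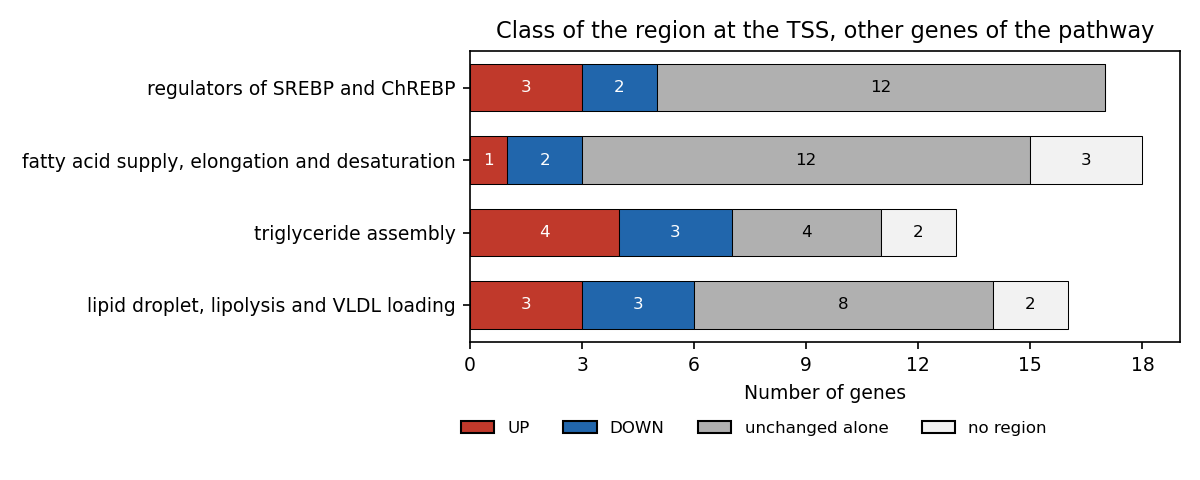
Bars give the number of genes in each of 4 lists by the class of the region at their TSSs, counting a gene as UP or DOWN where any TSS lies in such a region. The triglyceride assembly list has 4 UP, 3 DOWN and 4 unchanged genes, and the other lists have more unchanged than changed genes.

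In triglyceride assembly, the glycerol-3-phosphate acyltransferases of the endoplasmic reticulum, Gpat3 and Gpat4, had TSSs in UP regions of 1792 bp and 3345 bp, unlike Gpam, although 1 start of Gpat4 lies in an unchanged region of 4899 bp. All 5 starts of Gpat3 lie in its UP region, as do 2 of the 5 of Gpat4. Next in the pathway, Agpat2, which acylates lysophosphatidate, had all 5 starts in a DOWN region of 6769 bp, and its relative Agpat3 had 6 of 13 in an UP region of 5151 bp and 1 each in unchanged regions of 457 bp and 3163 bp. The phosphatidate phosphatase genes Lpin1 and Lpin2 had 4 of 8 and 5 of 13 starts in DOWN regions of 8022 bp and 28213 bp. The latter ranks 5 among DOWN regions. Lpin3 was at an unchanged region of 615 bp. Mogat1, a monoacylglycerol acyltransferase gene, had 1 of 6 starts in an UP region of 1467 bp, and Dgat1, the other enzyme of the last step, was unchanged at 1259 bp, the class of Dgat2.

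Among regulators of SREBP and ChREBP, 3 of 17 were UP and 2 DOWN. Insig2, which holds the SREBP escort protein SCAP in the endoplasmic reticulum, had 11 of 14 starts in a DOWN region of 14394 bp, rank 42 among DOWN regions, while Insig1 was unchanged with a region of 4014 bp. Usf1, an E-box binding factor, had 2 of 10 starts in a DOWN region of 2662 bp and 8 in an unchanged region. Srebf2, the factor of cholesterol synthesis, had 6 of 7 starts in an UP region of 3373 bp. Mlxip, the paralogue of Mlxipl, had 2 of 4 starts in an UP region of 921 bp, and Rxra, the partner of LXR, had 1 of 6 starts in an UP region of 6016 bp, 3 in an unchanged region of 15844 bp and 1 in an unchanged region of 1517 bp. The genes of SCAP and of the proteases that release SREBP, Scap, Mbtps1 and Mbtps2, were unchanged.

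Among genes of fatty acid supply, elongation and desaturation, 1 of the 15 with a TSS in a region was UP and 2 were DOWN. Pklr, the liver pyruvate kinase gene and a ChREBP target, had all 5 starts in a DOWN region of 5034 bp. Elovl2, which elongates polyunsaturated chains, had 1 of 2 starts in a DOWN region of 11309 bp, and Fads1, a desaturase of such chains, had 5 of 8 in an UP region of 2297 bp. Among genes of lipid droplets, lipolysis and VLDL loading, 3 of 14 were UP and 3 DOWN. Cidec, a droplet fusion gene, had all 4 starts in an UP region of 8736 bp, G0s2, an inhibitor of the lipase ATGL, its 1 start in an UP region of 3507 bp, and Bscl2, the seipin gene, 3 of 10 in an UP region of 551 bp and 3 in an unchanged region of 609 bp. Hilpda, also an inhibitor of that lipase, had both starts in a DOWN region of 4621 bp, Cideb both in one of 3245 bp, and Plin4 both in one of 2995 bp. The 2 inhibitors of ATGL thus lay in different classes, and the lipase gene itself, Pnpla2, was unchanged with a region of 2599 bp.

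The label of the cells was checked against markers at the level of regions. All 5 hepatocyte markers had a TSS in a region, unchanged for Alb and Ttr and DOWN for Apoa1, Krt18 and Serpina1a. Of the markers of other liver cells, 1 of 4 for cholangiocytes (Sox9, UP), 1 of 4 for macrophages (Cd68, unchanged), 1 of 4 for endothelial cells (Stab2, unchanged), 0 of 4 for stellate cells and 0 of 3 for lymphocytes had one. A TSS in a region says that H3K27ac was detected there in the pooled libraries, and the share of cells of each type cannot be read from it.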

How the data were processed

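ChIP-seq of H3K27ac was done on MPH by the authors, with 3 libraries and 1 input per treatment. Per the labels, reads were mapped to mm10 with Bowtie and peaks were called with MACS2. Per the study's methods, duplicates and blacklisted regions were removed, broad peaks were called on the pooled libraries, bins were filtered against input, loess-normalized and tested with csaw in a paired model, and bins were combined per peak. A region with an FDR of at most 0.05 was UP or DOWN where the ratio of UP to DOWN bins was at least 2 or at most 0.5. Regions between these ratios are in none of the lists, and regions with a higher FDR are unchanged. Width thus depends on how peaks were merged, and the balance of gains and losses on the loess step. The deposited files hold positions in base pairs, with no unit of signal.

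Here, starts were made 1-based and set against TSSs, gene bodies and windows of 50 kb in GENCODE M21, without mitochondrial genes. The TSSs of all transcripts were used, and a gene could fall into more than 1 class. Exon numbers are those of the longest transcript. Sequences came from RefSeq promoters and the GRCm38.p6 genome, whose main chromosomes are those of mm10. Motifs were searched on both strands. The genes named were the 10 members, list genes with a TSS in an UP or DOWN region, genes at a member's changed regions and the 3 closest to Gpam. Some unchanged list genes were named beside an isozyme or regulator after their values were seen. The members and lists were chosen with earlier results of these data known. Lookups were tested on simulated regions. Python 3.11.15, pandas 2.3.3, numpy 2.4.6 and matplotlib 3.10.9 were used.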

Additional observations from a re-analysis of the deposited data

How the results depend on the processing

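The counts of members by the class of their TSS regions stayed within 1.5 times under each alternative that was run: coding transcripts alone, the 5′ end of the gene record, regions within 1 kb of a TSS, regions that reach 500 bp beyond it both ways, and regions of at least 1 kb. No other member than Gpam was at a DOWN region in any of them. That Gpam stayed at one was fixed by its selection and the width of its region. Among other genes of the pathway, the count at DOWN regions was 6 with the 5′ end of the gene record, against 10. DOWN regions within 50 kb numbered 5, and 3 within 25 kb or 10 within 100 kb. With regions of at least 1 kb, UP regions near members numbered 9, against 14, and unchanged regions 42, against 70. Coverage of the members' gene bodies was 2.11% for UP, 5.64% for DOWN and 11.9% for unchanged regions. It was 1.87% for UP and 10.6% for unchanged with regions of at least 1 kb, and 2.16%, 5.35% and 11.5% over the coding transcripts. Without the first 1 kb of each gene it was 1.86%, 5.58% and 11.2%, and without Gpam 2.18%, 0.646% and 12.8%.

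No paired analysis was possible because the lists hold no value per library. For the same reason no replicate was left out, and no stricter FDR was applied. Depth is unknown, and a locus in none of the lists was not detected at that depth or had an ambiguous change. Unchanged means only that the FDR threshold was missed. Transcript levels were not analysed here, and a region's class says nothing of which gene it acts on.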
